A study of Mus musculus with 16 samples.

Results

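The nuclear-encoded oxidative phosphorylation genes were examined in primary mouse motoneurons, whose somata with dendrites and whose axons were sequenced apart. Members were protein-coding genes with a symbol that starts with Nduf, Uqcr, Atp5 or Cox4 to Cox8 followed by a letter, together with Sdha, Sdhb, Sdhc and Sdhd. Of the 46320 genes in the table, 98 were members, and 93 of them were among the 19964 genes that passed a filter on low counts. The 5 members that did not pass were Cox7b2, Ndufs6b, Cox6a2, Cox8b and Cox8c. By role, complex I had 49 members, complex II 4, complex III 8, complex IV 20 and complex V 17, with Ndufa4, whose protein belongs to complex IV, and its paralogue Ndufa4l2 placed there.

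Motoneurons of lumbar spinal cord were taken from embryonic day 13 mice, enriched by panning with an antibody to the p75 neurotrophin receptor, and grown in microfluidic chambers in which axons extend into a separate compartment. The groups were +/+ somatodendritic, Hnrnpr-/- somatodendritic, +/+ axonal and Hnrnpr-/- axonal, with 4 libraries each. Hnrnpr-/- mice lack the 5′ exons of Hnrnpr, the gene of the RNA-binding protein hnRNP R, after genome editing. All cultures received CNTF at 5 ng/ml in both compartments and BDNF at 20 ng/ml on the axonal side only. Libraries were made from polyA RNA with a low-input kit. Somatodendritic samples had a smaller reaction volume and fewer PCR cycles than axonal ones, and only their RNA was evaluated beforehand, per the study's methods. Preparation and compartment therefore cannot be told apart. The paper describes 4 biological replicates. The labels do not say whether these were separate cultures or animals, and p-values then measure only the spread between these samples. In bulk samples, fewer cells of a type and less RNA per cell cannot be told apart.

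Total counts ranged from 22024923 to 34864151 per library. Hnrnpr itself was at 178 to 241 CPM (counts per 1000000 scaled counts) in +/+ somatodendritic and 120 to 422 CPM in +/+ axonal libraries, and at 0.54 to 1.16 CPM in the Hnrnpr-/- libraries. Of 8 motoneuron markers, Mnx1 was at 0 in every library but 1 Hnrnpr-/- axonal one, at 0.06 CPM, and Isl2 reached at most 0.207 CPM in somatodendritic libraries. There Chat, the acetylcholine-synthesizing enzyme, was at 0.657 to 1.31 CPM, Prph at 1.09 to 2.47, Slc5a7 at 2.72 to 7.74, Lhx3 at 3.59 to 5.22, Isl1 at 3.89 to 8.03 and Slc18a3 at 3.90 to 11.6. Of the 6 motoneuron markers tested, 3 were lower and 0 higher in axons of each genotype. Their median log2 fold change was -2.24 in +/+ and -1.85 in Hnrnpr-/- motoneurons. Over all genes tested, 27.4% and 26.8% were lower. The compartments also differed in cell type markers. All 5 pan-neuronal markers were lower in axonal libraries of both genotypes, and their summed level was 3561 to 5653 CPM in somatodendritic and 293 to 2893 CPM in axonal libraries. Of 7 astrocyte or radial glia markers, 5 were higher in +/+ axons and 3 in Hnrnpr-/- axons, with a summed level of 1040 to 2219 CPM in somatodendritic and 3224 to 5881 CPM in axonal libraries. Fibroblast or meningeal markers summed to 60.5 to 1236 CPM in somatodendritic and 185 to 2386 CPM in axonal libraries, ranges that overlapped. Of these markers 2 of 7 were higher in axons of each genotype. That was close to the share of all genes tested, 30.1% in +/+ and 27.5% in Hnrnpr-/- axons. Of 3 nuclear RNAs (Malat1, Neat1 and Meg3), 2 were higher and 1 lower in +/+ axons and 1 higher and 1 lower in Hnrnpr-/- axons, and their sum was 2356 CPM in +/+ axon replicate 2, against 492 to 1190 CPM in the other libraries. In +/+ axons 1 of 6 oligodendroglia or Schwann, 0 of 5 microglia and 1 of 4 striated muscle markers were higher and 0 lower by the same edgeR test. Of the 3 endothelial markers, 1 was higher and 1 lower in +/+ axons, and 1 higher and 2 lower in Hnrnpr-/- axons. Their median log2 fold changes were -1.87 and -3.4. The part of these cells and of nuclear RNA in the results below was not tested.

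Oxidative phosphorylation is carried out in the inner mitochondrial membrane. Complex I oxidizes NADH, complex II succinate, and electrons pass through ubiquinone to complex III, through cytochrome c to complex IV, and so to oxygen. The proton gradient built by complexes I, III and IV drives ATP synthase, complex V. Most subunits are encoded in the nucleus, translated in the cytosol and imported, and axons hold mitochondria far from the cell body. The subunits encoded in mitochondrial DNA were not analysed here.

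The 3 genes of the c ring show how members can carry one protein in different messages. Atp5g1, Atp5g2 and Atp5g3 encode the same mature c subunit, the membrane ring that turns with proton flow, behind different import sequences. The last 75 codons and the stop codon of each are printed because a reader can then see that these messages differ while the protein does not. They come from the GENCODE vM39 annotation on GRCm39, 5′ to 3′, at chr11:95963930-95964461, minus strand, at chr15:102571449-102573601, minus strand and at chr2:73738937-73739640, minus strand. Capitals mark bases that differ from Atp5g3.
Atp5g1: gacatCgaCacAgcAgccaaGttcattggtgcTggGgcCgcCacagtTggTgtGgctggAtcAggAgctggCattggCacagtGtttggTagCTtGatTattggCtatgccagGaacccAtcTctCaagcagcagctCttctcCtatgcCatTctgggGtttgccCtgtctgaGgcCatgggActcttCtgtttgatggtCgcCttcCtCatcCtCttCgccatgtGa
Atp5g2: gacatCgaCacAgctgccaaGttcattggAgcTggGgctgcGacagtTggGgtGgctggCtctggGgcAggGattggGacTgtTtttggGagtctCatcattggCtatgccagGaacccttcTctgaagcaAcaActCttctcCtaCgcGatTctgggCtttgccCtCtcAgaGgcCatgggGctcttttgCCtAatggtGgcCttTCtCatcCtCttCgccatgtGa
Atp5g3: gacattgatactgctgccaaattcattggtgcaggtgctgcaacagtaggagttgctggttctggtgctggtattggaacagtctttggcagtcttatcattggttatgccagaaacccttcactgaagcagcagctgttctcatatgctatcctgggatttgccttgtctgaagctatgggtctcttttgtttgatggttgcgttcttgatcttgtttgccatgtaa
Of 228 bases, 46 differed between Atp5g1 and Atp5g3 (79.8% identical), 49 between Atp5g2 and Atp5g3 (78.5%) and 34 between Atp5g1 and Atp5g2 (85.1%), with 0 different residues in each pair. The third codon position held 41, 44 and 32 of these differences.

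The members with the shortest coding sequence in each of complexes I, III, IV and V were Ndufb1, Uqcr11, Cox7c and Atp5e, counting those at 10 CPM or more in +/+ axons. Their open reading frames are shown whole because short coding length went with a higher log2 fold change of axon over soma, as described below. Start and stop codons are in capitals. They lie at chr12:101934433-101935888, minus strand, at chr10:80240000-80242579, minus strand, at chr13:86193872-86194794, minus strand and at chr2:174304296-174305789, minus strand, as spans from the first to the last coding base that include introns.
Ndufb1: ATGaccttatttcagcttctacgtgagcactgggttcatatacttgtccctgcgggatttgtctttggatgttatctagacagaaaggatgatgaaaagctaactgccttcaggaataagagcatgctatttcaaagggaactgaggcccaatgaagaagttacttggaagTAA
Uqcr11: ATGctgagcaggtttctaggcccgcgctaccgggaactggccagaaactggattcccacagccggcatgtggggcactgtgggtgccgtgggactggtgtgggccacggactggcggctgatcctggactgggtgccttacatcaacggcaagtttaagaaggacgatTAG
Cox7c: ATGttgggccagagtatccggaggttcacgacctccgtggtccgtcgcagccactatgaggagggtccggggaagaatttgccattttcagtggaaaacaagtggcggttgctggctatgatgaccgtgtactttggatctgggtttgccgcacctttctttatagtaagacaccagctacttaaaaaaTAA
Atp5e: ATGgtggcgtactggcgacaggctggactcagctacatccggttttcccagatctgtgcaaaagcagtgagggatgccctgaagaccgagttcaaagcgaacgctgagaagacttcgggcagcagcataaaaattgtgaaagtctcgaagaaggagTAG
Ndufb1 had 57 codons before the stop, Uqcr11 56, Cox7c 63 and Atp5e 52. By contrast Ndufs1, the largest core subunit of complex I, had 727.

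In +/+ motoneurons, most members were higher in axons than in somata. Of the 93 members tested, 72 were higher in axons, 1 was lower and 20 did not pass an adjusted p of 0.05 (edgeR quasi-likelihood test, Benjamini-Hochberg over all genes tested). Over all genes tested, 30.1% were higher and 27.4% lower. The median log2 fold change was 1.04 over the members and 0.07 over all genes tested. For 69 members the 4 axonal libraries lay above all 4 somatodendritic ones, against 24.8% of all genes tested. Ribosomal protein genes were set beside them. In cytosolic ribosomal protein genes 90 of 93 were higher, with a median of 1.72, and in mitochondrial ribosomal protein genes 66 of 78, with a median of 0.81.

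The complexes differed in their medians, which are given as a description. Complex III was at 1.28 with 6 of 8 higher, complex IV at 1.20 with 12 of 16, complex V at 1.04 with 14 of 17, complex I at 0.95 with 37 of 48 and complex II at 0.48 with 3 of 4. These groups are unlike in make-up, since complex I includes assembly factors and complex IV the weakly expressed Cox4i2, Cox7a1 and Ndufa4l2. The 11 common subunits of complex IV had a median of 1.22, and 11 of 11 were higher. In complexes I and III the accessory subunits had a higher median than the core, a difference that was not tested. In complex I, the accessory subunits had a median of 1.34, with 31 of 33 higher, and the 7 core subunits a median of 0.41, with 4 higher and 1 lower. In complex III the 5 accessory subunits had a median of 1.51 and the 2 core subunits 0.15. The 8 Ndufaf assembly factors, which help to build complex I and are no part of the finished enzyme, had a median of 0.26 and 2 of 8 were higher. In complex V, the stalk and other Fo subunits had a median of 1.28 and 9 of 9 were higher, whereas for F1, the catalytic head, the median was 0.22 and 2 of 5 were higher.

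**Figure D1:**
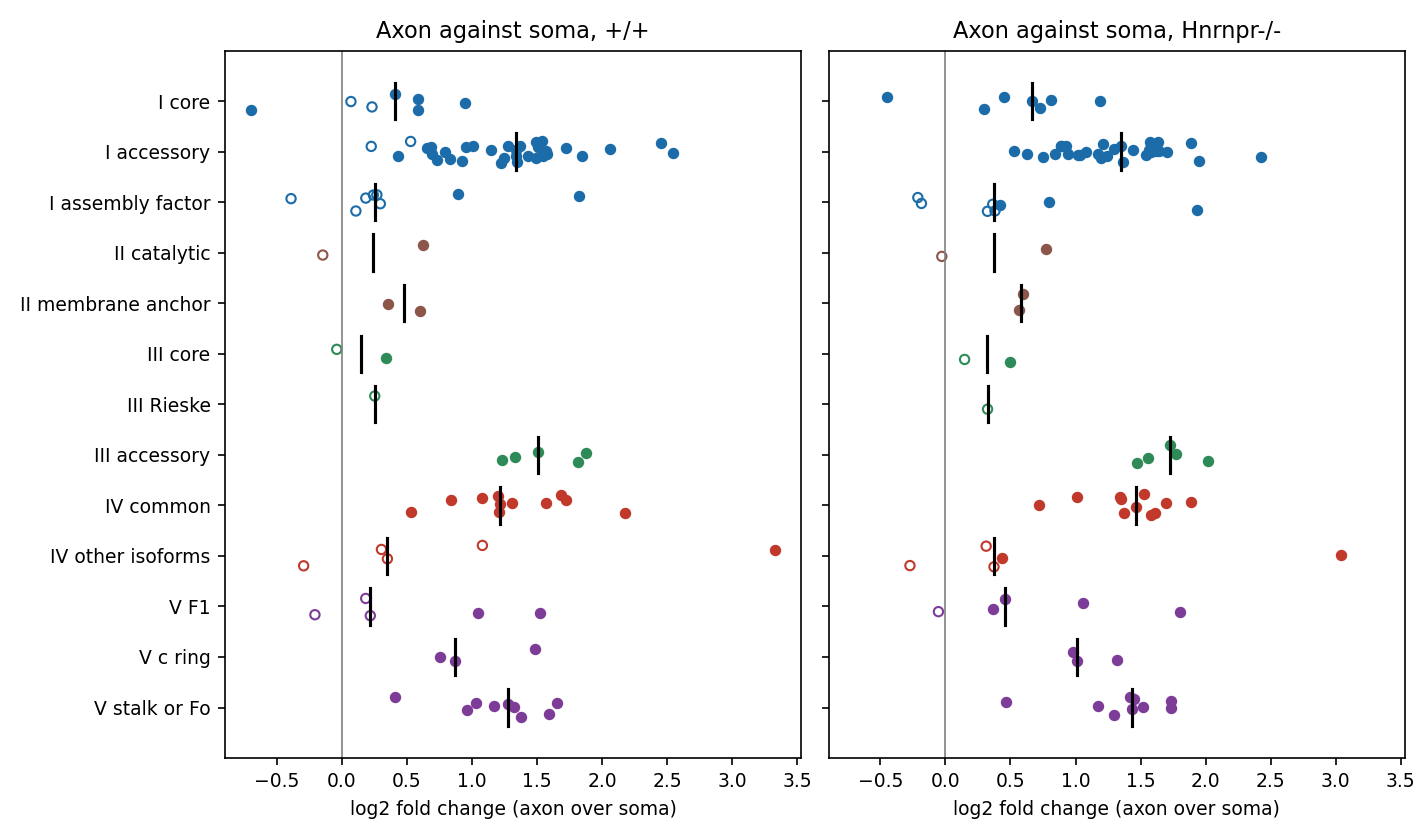
Each point is 1 member, placed by its log2 fold change (x axis, axon over soma) and role in complexes I to V (y axis), in +/+ (left) and Hnrnpr-/- motoneurons (right); filled points passed an adjusted p of 0.05 and bars are medians. The accessory subunits of complexes I and III lay mostly above 1, and the medians of the complex I core and F1 subunits in +/+ were 0.41 and 0.22.

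The core subunits include those that carry redox centres or catalytic sites. Ndufs1, which holds iron-sulfur clusters of the NADH-oxidizing arm, was at 239, 254, 277 and 290 CPM in +/+ somata and 203, 161, 117 and 173 CPM in +/+ axons. It was the only member to pass as lower in axons, at -0.70 ± 0.18 on the log2 scale (SE; edgeR adjusted p = 0.00465), and its groups did not overlap. Ndufv1, which binds NADH, differed by 0.07 ± 0.12 (adjusted p = 0.623). Ndufs8, a further iron-sulfur subunit, rose by 0.94 ± 0.15 (adjusted p = 0.000212). Sdha, the succinate-oxidizing flavoprotein, was at 582 to 607 CPM in somata and 477 to 636 CPM in axons, and the groups overlapped. Its partner Sdhb, which carries iron-sulfur clusters, rose by 0.62 ± 0.12 (adjusted p = 0.000687). Of the complex III core pair, which hold no redox centre, Uqcrc1 rose by 0.34 ± 0.12 (adjusted p = 0.0272, and 0.102 without +/+ axon replicate 1) and Uqcrc2 differed by -0.04 ± 0.13 (adjusted p = 0.819). In F1, Atp5b, the catalytic beta subunit, was at 2169 to 2565 CPM in somata and 2397 to 2979 CPM in axons, which overlapped (0.18 ± 0.13, adjusted p = 0.221). Atp5a1, the alpha subunit, differed by -0.21 ± 0.14 (adjusted p = 0.204). Ndufaf5, an assembly factor of complex I, was at -0.39 ± 0.26 (adjusted p = 0.204) and completed the 5 lowest values among members at 10 CPM or more on average over the +/+ libraries. Ndufs3, Ndufs7 and Ndufv2 rose by 0.41 to 0.58, although Ndufs3 and Uqcrc1 did not pass with the replicate block by culture (adjusted p = 0.063 and 0.0596), while Uqcrfs1 and Atp5c1 did not pass, at 0.25 and 0.22.

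The highest log2 fold changes among members at 10 CPM or more on average over the +/+ libraries were those of Ndufb6, Ndufb1, Cox7c, Ndufa2 and Uqcr11. Uqcr11, a small subunit of complex III, was at 56.7, 37.9, 37.6 and 48.1 CPM in +/+ somata and 141, 222, 169 and 130 CPM in +/+ axons. It rose by 1.87 ± 0.22 (edgeR adjusted p = 2.86e-05), and every axonal library lay above every somatodendritic one. Ndufa2, an accessory subunit of complex I, rose by 2.06 ± 0.21 (adjusted p = 1.86e-05), from 20.1 ± 4.50 CPM (SD, n = 4) to 84.0 ± 17.0. Cox7c, a small subunit of complex IV, was at 17.1, 17.6, 20.1 and 23.4 CPM in somata and 48.3, 186, 72.8 and 45.3 CPM in axons, where replicate 2 stood far above the rest. Ndufb6 and Ndufb1, accessory subunits of the complex I membrane arm, had the same pattern. In +/+ axons Ndufb6 was at 103, 759, 183 and 107 CPM and Ndufb1 at 18.7, 140, 32.8 and 20.0 CPM. Without +/+ axon replicate 2 the log2 fold changes were 1.41 for Ndufb6 and 1.30 for Ndufb1, against 2.55 and 2.45 with it, and for Cox7c it was 1.499 against 2.17. All 3 still passed without it. The same library had the highest sum of nuclear RNAs, whose part in these values was not tested.

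**Figure D2:**
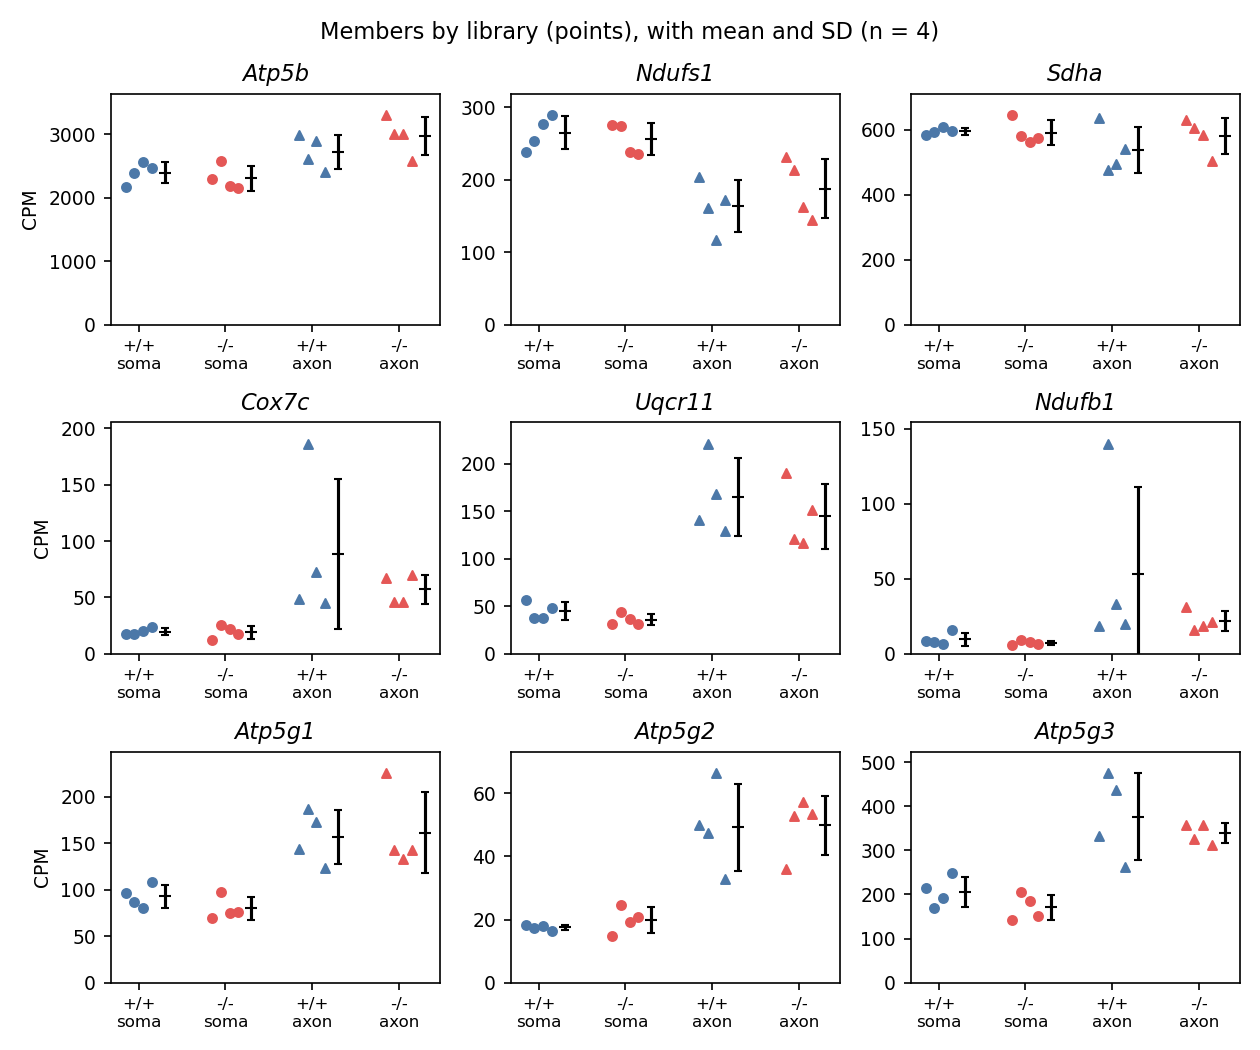
CPM (y axis, from 0) of 9 members in each library (points, circles for soma and triangles for axon) of the 4 groups, with mean and SD beside them (n = 4); an SD that reaches below 0 stops at the axis. The 4 axonal libraries of Uqcr11 in +/+ motoneurons lie between 130 and 222 CPM, above the somatodendritic libraries, and those of Ndufs1 below, while in Cox7c and Ndufb1 1 +/+ axonal library stands apart.

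Isoforms of complex IV that tissues exchange were detected unequally. Cox4i1, the general isoform of the regulatory subunit, was at 182 ± 16.8 CPM (SD, n = 4) in +/+ somata and 417 ± 74.4 in +/+ axons (1.20 ± 0.18, adjusted p = 0.00014), while Cox4i2, the lung and hypoxia isoform, stayed at or under 0.494 CPM in every library. Cox6b2, known as a testis isoform, was low but showed the highest log2 fold change of all members. It was at 1.51, 1.44, 2.03 and 1.83 CPM in +/+ somata and 8.28, 9.44, 30.0 and 20.9 CPM in +/+ axons (3.33 ± 0.41, adjusted p = 3.85e-05), with no overlap. Its general counterpart Cox6b1 rose by 1.22 ± 0.23 (adjusted p = 0.000598). Cox7a1, a muscle isoform, was under 1 CPM in every library and highest in +/+ axon replicate 3, at 0.747 CPM, followed by Hnrnpr-/- axon replicate 1 at 0.727, +/+ axon replicate 2 at 0.703 and Hnrnpr-/- axon replicate 4 at 0.63 CPM, and Cox7a2 rose by 1.07 ± 0.24 (adjusted p = 0.00192). The other muscle isoforms Cox6a2 and Cox8b, which were not tested, reached 1.29 and 0.365 CPM in Hnrnpr-/- axon replicate 4, more than in any other library, and the summed level of striated muscle markers was also highest there, at 148 CPM against at most 57.4 CPM elsewhere. The part of muscle cells in these values was not tested. The 3 c ring genes all rose. Atp5g2 showed the largest of the 3 changes, from 17.6 ± 0.837 to 49.2 ± 13.8 CPM (1.49 ± 0.22, adjusted p = 9.63e-05), followed by Atp5g3 at 0.87 ± 0.19 (adjusted p = 0.00153) and Atp5g1 at 0.75 ± 0.19 (adjusted p = 0.00426). Differences between these genes were not tested.

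Per kilobase of exon, members also differed in level. In +/+ somata Atp5b was highest at 1275 ± 89.7 RPKM (CPM per kilobase of exon; SD, n = 4), followed by Atp5a1 at 513 ± 18.5 and Uqcrc1 at 323 ± 14.7. In +/+ axons Atp5b was again highest at 1448 ± 142 RPKM, followed by Cox6a1 at 674 ± 234 and Cox4i1 at 546 ± 97.3, whose SD ranges overlap.

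In +/+ motoneurons the difference between compartments varied with message length. Across the 90 tested members matched to a GENCODE canonical transcript, the Spearman correlation of coding length with the log2 fold change was -0.746, a description without a test since these genes share libraries. With the length of the whole canonical mRNA it was -0.509. In 10343 other protein-coding genes over 10 CPM, the coefficients were -0.363 and -0.403. Among members with coding sequences under 300 bases the median log2 fold change was 1.55 (n = 20), and from 300 to under 600 bases 1.11 (n = 46), while from 600 to under 1200 bases it was 0.407 (n = 14) and from 1200 bases 0.089 (n = 10). The other genes had medians of 0.82, 0.775, 0.301 and -0.422 in the same bands. By combined exon length, the members' median lay below that of the other genes over 10 CPM in all 5 bands under 2500 bases. Under 500 bases the members' median was 1.55 and that of the other genes 1.87, and from 500 to under 700 bases they were 1.40 and 1.55. In the 3 bands that follow they were 0.958 and 1.21, 0.60 and 0.885, and 0.269 and 0.504. At 2500 bases or more they were 0.21 and -0.38. In Hnrnpr-/- motoneurons the coefficients with coding and whole mRNA length were -0.72 and -0.481 for members and -0.363 and -0.428 for the other genes. There the members' median was not below that of the other genes from 1500 to under 2500 bases of exon, at 0.496 against 0.490.

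**Figure D3:**
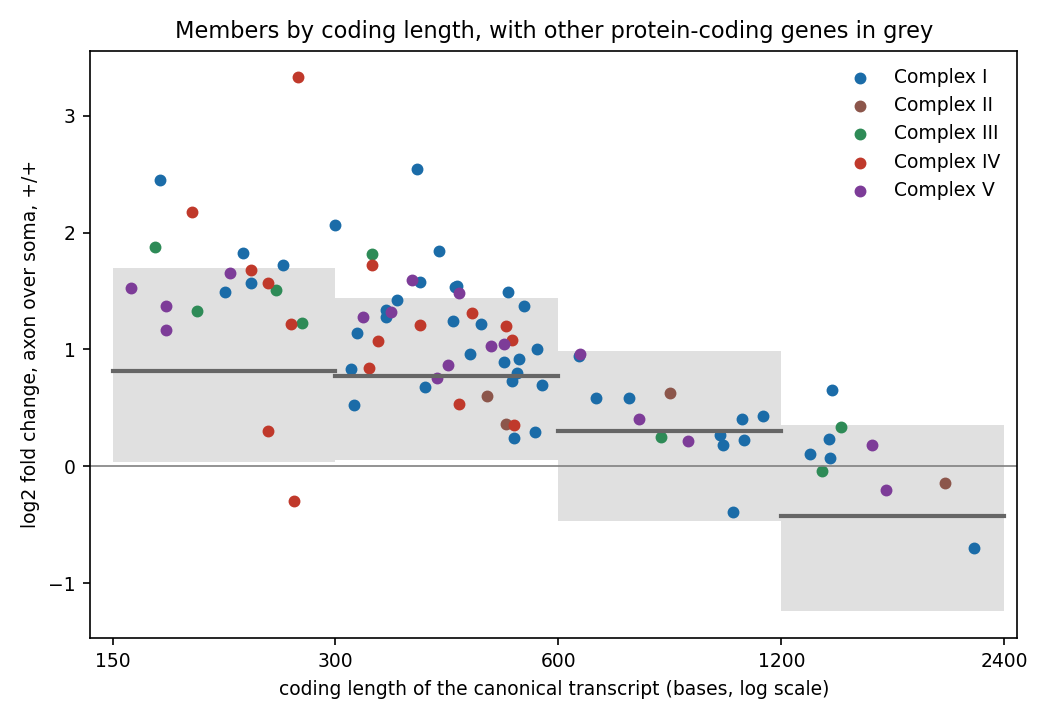
Each point is 1 member, by coding length of its canonical transcript (x axis, bases, log scale) and log2 fold change of axon over soma in +/+ motoneurons (y axis), coloured by complex. Grey lines and bands are medians and quartiles of other protein-coding genes over 10 CPM in 4 length bands, and members fall from a median of 1.55 under 300 bases to 0.089 from 1200 bases.

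Promoters of 78 members were available from RefSeq (GRCm38.p6, 250 bases before to 50 after the start). A motif of NRF1, a regulator of respiratory genes, spelled GCGCANGCG on either strand, was found in 26.9% of them and in 8.8% of 17413 other promoters. The ETS motif CCGGAAG was in 23.1% and 11.8%, the YY1 motif AAGATGGCG in 9.0% and 1.9%, and the ERR motif TCAAGGTCA in 2.6% and 0.3%. Where a gene had several promoters the first listed was read. The median log2 fold change of axon over soma in +/+ motoneurons was 1.03 for members with the NRF1 motif and 1.01 without it, 1.27 and 0.906 for ETS, 1.34 and 1.01 for YY1, and 0.736 and 1.04 for ERR, which only 2 tested members held. These matches are descriptions of letters, not of binding.

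The symbol rule leaves out other genes of the pathway. Of 54 tested, 20 were higher and 11 lower in +/+ axons, not far from the 30.1% and 27.4% of all genes tested, with a median of 0.28. Cycs, which encodes cytochrome c, was at 102 ± 17.4 CPM in somata and 258 ± 176 CPM in axons (1.34 ± 0.33, edgeR adjusted p = 0.00341), and without +/+ axon replicate 2 its log2 fold change was 0.75 and still passed. Cox17, a copper chaperone of complex IV, rose by 2.28 ± 0.36 (adjusted p = 0.00018). Lrpprc, which stabilizes mitochondrial mRNAs, fell by 1.28 ± 0.23 on the log2 scale (adjusted p = 0.000452), and Ppargc1a, a transcriptional coactivator of mitochondrial genes, was at 86.1 ± 6.96 CPM in somata and 42.1 ± 17.2 in axons (adjusted p = 0.0496), a call lost under 6 of 10 other settings and in 12 of 16 fits with a library left out.

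In Hnrnpr-/- motoneurons the same comparison gave 80 members higher and 1 lower in axons, with a median log2 fold change of 1.19, against 27.5% of all genes higher and 26.8% lower. In 79 members the groups did not overlap upward, against 24.1% of all genes tested. The lower member was again Ndufs1, at -0.45 ± 0.18 (edgeR adjusted p = 0.0474). Complex III had the highest median, 1.51, and complex II the lowest, 0.58. Ndufv1, Atp5b and Atp5c1 were among the core and F1 subunits that passed here and not in +/+ motoneurons, where Atp5b and Atp5c1 did pass when scaled by library totals only (adjusted p = 0.0296 and 0.0421). For none of them did the difference between genotypes, tested as an interaction, pass.

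**Figure D4:**
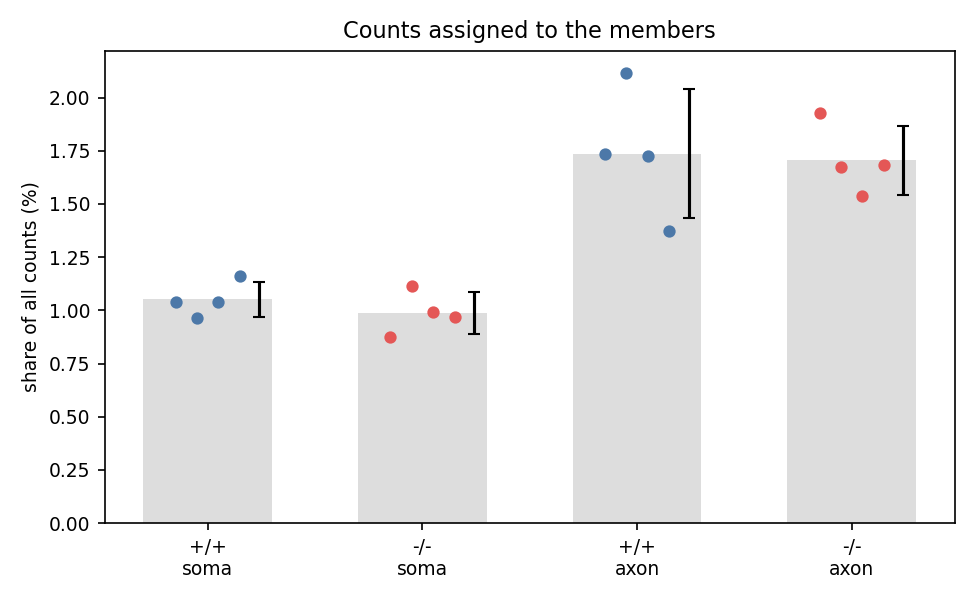
Share of all counts assigned to the members (y axis, percent, from 0) in each library (points) of the 4 groups, with the mean as a bar and the SD as an error bar (n = 4). Somatodendritic libraries lie between 0.873% and 1.16% and axonal libraries between 1.37% and 2.11%.

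Loss of hnRNP R was compared with +/+ within each compartment. In axons, 0 of 93 members passed the adjusted threshold and 2 had an unadjusted p under 0.05, against 0.0100% and 3.88% of all genes tested. The median log2 fold change was -0.04, with 33 members positive and 60 negative. In 0.301% of all genes tested the Hnrnpr-/- axonal libraries lay below every +/+ library, and no member was among them. The 5 smallest p-values belonged to Ndufb6, Ndufb1, Uqcrb, Ndufab1-ps and Ndufc1. Ndufb6 was at 103, 759, 183 and 107 CPM in +/+ and 177, 85.4, 111 and 110 CPM in Hnrnpr-/- axons, and the groups overlapped. Its log2 fold change was -1.25 ± 0.50 (unadjusted p = 0.0233, exact permutation p = 0.457), and for Ndufb1 it was -1.27 ± 0.54 (unadjusted p = 0.0315, exact permutation p = 0.371). Both rest on +/+ axon replicate 2. Without it the values were -0.11 and -0.12, and for Uqcrb, a complex III subunit, -0.10 in place of -0.71. The median without it was 0.06. Without Hnrnpr-/- axon replicate 1, in which 79 of 93 members and 35.9% of all genes tested had their group's highest value, it was -0.17. Ndufab1-ps, a near-identical copy of Ndufab1 whose reads may be split between the 2, turned to 0.01.

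In somata, 0 of 93 members passed and 2 had an unadjusted p under 0.05, against 0.00501% and 0.601% of all genes tested. The fit to all 16 libraries shares their spread, and the common dispersion was 0.302 in axonal and 0.0535 in somatodendritic libraries. Fitted to the somatodendritic libraries alone, 0 of 91 members passed and 10 had an unadjusted p under 0.05, against 2.62% of all genes. The median was -0.23, and 85 members were negative and 8 positive, where all genes tested had a median of 0.00. The members share libraries, so this count carries no test. Other protein-coding genes over 10 CPM of short combined exon length also lay below 0. Under 500 bases the members' median was -0.39 and that of these genes -0.33, with 1 of 21 positive, and from 500 to under 700 bases they were -0.30 and -0.21, with 13 of 99 positive. In the 4 longer bands the members were at -0.26, -0.18, -0.11 and -0.11 and the other genes at -0.08, -0.04, 0.01 and -0.01. Cell type markers also differed between these libraries. The summed level of fibroblast or meningeal markers was 1108 and 1236 CPM in Hnrnpr-/- soma replicates 3 and 4, against at most 409 CPM in the other somatodendritic libraries (median log2 fold change of the 7 markers 1.11). That of astrocyte or radial glia markers was 1804 and 2219 CPM there, against at most 1502 CPM in the others, and that of pan-neuronal markers was 3561 CPM in replicate 4, against 4823 to 5653 CPM in the others. The members' median was -0.27 without replicate 3 and -0.19 without replicate 4. The part of these other cells in the result was not tested. Complex III was lowest at -0.31 and complex II highest at -0.06. Without +/+ soma replicate 4 they were -0.14 and -0.01, and without Hnrnpr-/- soma replicate 2 -0.39 and -0.09. Without +/+ soma replicate 1 complex III was at -0.20. Cytosolic ribosomal protein genes had a median of -0.15, with 82 of 93 negative. Uqcr10, a small complex III subunit, was at 39.5, 26.0, 24.5 and 40.3 CPM in +/+ and 18.4, 26.7, 25.7 and 19.2 CPM in Hnrnpr-/- somata, with overlap (-0.53 ± 0.23, unadjusted p = 0.0346, exact permutation p = 0.143). Ndufb11, an accessory complex I subunit, was at -0.35 ± 0.17 (unadjusted p = 0.0496, exact permutation p = 0.143). Atp5j, Cox6b1 and Ndufb10 had the next smallest p-values, at -0.50, -0.44 and -0.32 with unadjusted p = 0.0702, 0.0756 and 0.0784 in the edgeR fit, and at -0.28, -0.27 and -0.18 without +/+ soma replicate 4. Ndufb6 was the 1 member whose Hnrnpr-/- libraries all lay below the +/+ ones (exact permutation p = 0.0286, the smallest that 4 against 4 can give), against 0.816% of all genes tested. Without +/+ soma replicate 4, in which 62 of 93 members and 31.1% of all genes tested had their group's highest value, the median was -0.12. Without Hnrnpr-/- soma replicate 2, in which 77 members and 25.7% of all genes tested had theirs, it was -0.29. The difference between short and long messages also varied by library. In genes outside the list it was -1.32 to -1.96 on the log2 scale in +/+ and -1.56 to -2.21 in Hnrnpr-/- somata, and its part in the result was not tested.

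**Figure D5:**
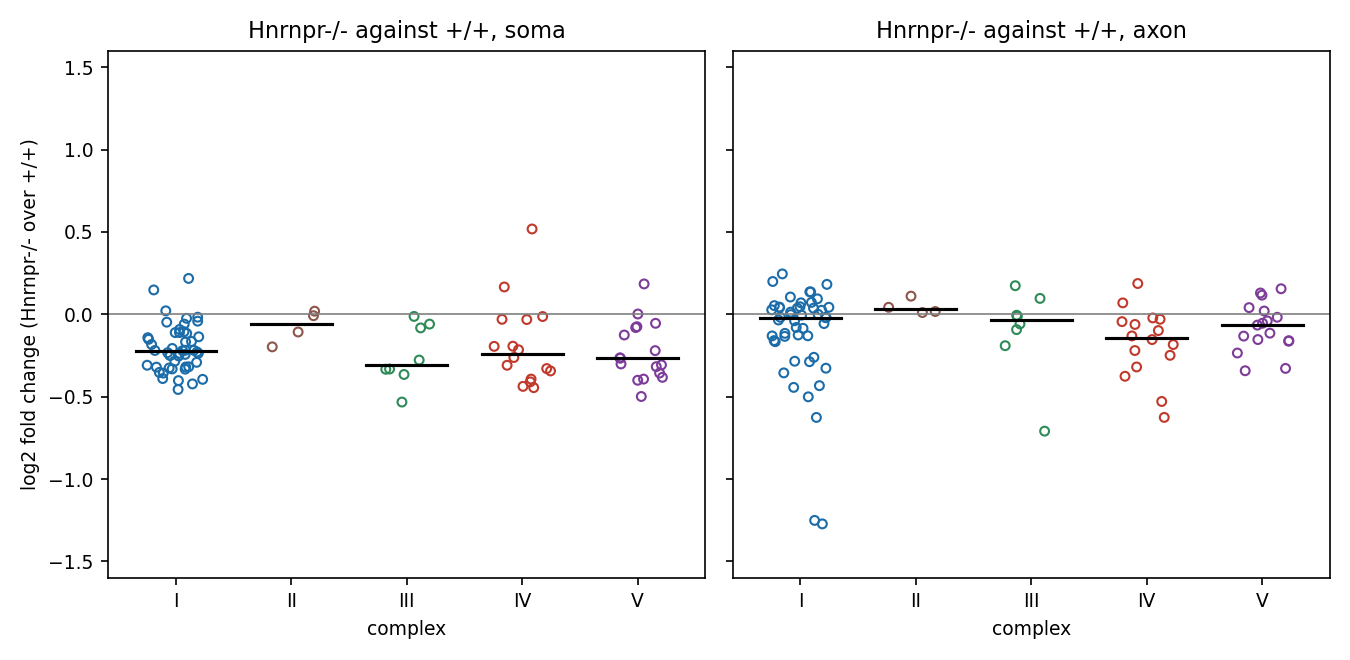
Log2 fold changes of Hnrnpr-/- over +/+ (y axis) for the 93 tested members in each of the 5 complexes (x axis), in somata (left) and axons (right); open points did not pass an adjusted p of 0.05 and bars are medians. In somata 85 members lie below 0, in axons 60.

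The interaction, which asks whether the genotype effect differed between compartments, gave 0 members passing the adjusted threshold and 0 with an unadjusted p under 0.05, against 0% and 1.33% of all genes tested. The smallest unadjusted p was 0.104, for Ndufa10, an accessory complex I subunit, at 0.30 ± 0.17. Ndufb11, Ndufv1, Uqcr10 and Ndufs3 followed, at 0.23 to 0.44. The median was 0.16, with 78 of 93 members positive, against 10193 of 19964 genes tested. With a library left out the median ranged from 0.06, without Hnrnpr-/- axon replicate 1, when 59 members were positive and complex IV had a median of -0.02, to 0.27, without +/+ axon replicate 2. No difference between genotypes was detectable for any member with these 4 libraries a group. For Atp5b the 95% interval of the log2 fold change was -0.14 to 0.40 in axons and -0.32 to 0.21 in somata. Both intervals come from the fit that shares 1 spread over all 16 libraries. The common dispersion was 0.302 in axonal and 0.0535 in somatodendritic libraries, so the intervals do not give the precision of each compartment by itself.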

How the data were processed

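The authors trimmed the reads, mapped them with STAR 2.7.2b to GRCm39 (RefSeq) and counted them on exons with featureCounts 1.6.4, per the study's methods. Reads with several alignments or overlapping genes were counted as fractions, so the deposited values are estimated counts, unnormalized, and were rounded to whole numbers here. The counting used a strand setting, while the low-input kit named in the labels does not mark strand, so reads of overlapping antisense genes cannot be told apart. Of the members, 92 held a fractional count in at least 1 library and 7 in all 16. Ndufb4, Ndufb4b and Ndufb4c, and Ndufab1 and Ndufab1-ps, are near-identical copies and their counts are uncertain.

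Groups came from the sample titles. In R 4.3.3, edgeR 4.0.16 filtered genes by expression per group, scaled by TMM, and fitted quasi-likelihood models with 1 mean per group to 16 libraries, for 5 contrasts. Adjusted p-values are Benjamini-Hochberg over all genes tested, at 0.05, two-sided. Standard errors are the log2 fold change over the root of F. CPM used TMM-scaled totals, and RPKM divided it by combined exon length. DESeq2 1.42.0, other scalings, filters, blocks and left-out libraries were alternatives. The fitting was tested on simulated data. The small changes simulated first seldom passed the threshold, and larger ones were then added. Coding lengths came from GENCODE vM39 canonical transcripts, and 94 of 98 members matched.

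Members named in full were the core subunits, isoform pairs, c ring genes, the 5 highest and 5 lowest log2 fold changes between compartments in +/+ motoneurons at 10 CPM or more, and the 5 smallest p-values per genotype contrast, apart from results not reported here. The members and lists were chosen with earlier results of these data known, and the comparison by coding length, over the 90 tested members with a match, and the motif search were added after values were seen. Same-numbered libraries were checked for pairing. Deviations of somatodendritic and axonal libraries correlated at 0.148 to 0.587 in Hnrnpr-/- motoneurons, all above 0.1, and at 0.0772 to 0.346 in +/+ motoneurons, 3 of 4 above it, and in both genotypes all 4 libraries correlated best with their own number. Between genotypes they correlated at 0.0214 to 0.844 in axons, 3 of 4 above 0.1, and at -0.0101 to 0.634 in somata, 2 of 4 above it. The reported fits have no block, and blocks by culture and by number were alternatives.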

Additional observations from a re-analysis of the deposited data

Results flagged for a closer look

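A library whose distance from its nearest neighbour took most of its group's range was found in 9 of 172 group comparisons over 42 named members and the members' share of counts, 5.2%, where chance gives about 1 in 20. In +/+ axon replicate 2, Ndufb6 was at 759 CPM against 103 to 183 CPM in the other libraries, Ndufb1 at 140 CPM against 18.7 to 32.8, and Cox8a at 373 CPM against 187 to 218. In Hnrnpr-/- axon replicate 1, Atp5g1 was at 226 CPM against 133 to 143, and Ndufv1 at 271 CPM against 213 to 218. Ndufs7 was low in +/+ axon replicate 4, at 93.6 CPM against 121 to 122. Uqcrc2 was high in Hnrnpr-/- soma replicate 2, at 235.0 CPM against 197 to 203. The weakly expressed Ndufa4l2 was at 1.24 CPM in +/+ soma replicate 1 against 0.135 to 0.29, and at 1.49 CPM in Hnrnpr-/- axon replicate 4 against 0 to 0.124.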

How the results depend on the processing

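The counts of members passing in each contrast stayed within 1.5 times the reported value under the 9 or 10 other settings run for it and with each of the 16 libraries left out. For axon against soma in +/+ motoneurons the count was 73 as reported, 67 to 81 under these settings and 70 to 78 with a library left out, and in Hnrnpr-/- motoneurons it was 81, 77 to 83 and 75 to 82. With the replicate block by culture it was 67 in +/+ and 77 in Hnrnpr-/- motoneurons, and with the block by replicate number 72 and 80. For the genotype contrasts and the interaction it was 0 in every setting run, DESeq2 included, by which 3 of 92 members fell under an unadjusted p of 0.05 for axons, 2 for somata and 1 for the interaction, against 4.65%, 0.807% and 1.88% of all genes. When only the groups compared were fitted this number was 10 of 91 for somata, against 2.62% of all genes, and 0 of 93 for axons, against 0.712%.

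The median in +/+ motoneurons ranged from 0.87 to 1.19. In Hnrnpr-/- against +/+ axons it ranged from -0.17 without Hnrnpr-/- axon replicate 1 to 0.06 without +/+ axon replicate 2, in somata from -0.29 to -0.12, and for the interaction from 0.06 to 0.27. The settings for Cycs, Cox17, Lrpprc and Ppargc1a were chosen after seeing the data. Directions turned for 4 members, none of them called, with reported values of -0.04 for Uqcrc2, -0.15 for Sdha, -0.29 for Ndufa4l2 and -0.63 for Ndufab1-ps. Uqcrc2 between compartments in +/+ was 0.112 with library totals only, 0.022 under a stricter filter (10 or more counts throughout 1 group) and 0.0507 with protein-coding genes only, and between -0.0830 and 0.0732 with a library left out. Sdha was 0.00721 with library totals only. Ndufa4l2 was 0.163 with the block by culture and between -0.535 and 1.02 with a library left out, the latter without +/+ soma replicate 1. Ndufab1-ps between genotypes in axons was between -0.83 and 0.0111 with a library left out, the latter without +/+ axon replicate 2. Uqcrc1 lost its call without a filter, with the block by culture, with only the groups compared and without +/+ axon replicate 1, Ndufs3 with the block by culture, and Ndufa4 with that block and without +/+ axon replicate 2. Calls gained in +/+ motoneurons included those of Uqcrfs1, Atp5b and Atp5c1 with library totals only, of Uqcrfs1 and Atp5c1 without +/+ axon replicate 4, and of Cox4i2 without +/+ soma replicate 1. Precision is limited by 4 libraries a group.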
